A study of Ovis aries with 10 samples.

Results

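EDN1, AGTR1, ADRB1, CNN1 and MYLK, 5 genes of vascular tone and smooth muscle contraction, were examined across 10 fetal sheep hearts. The members were every non-control probe whose gene name, accession or description on the array was one of these genes, which gave 1 probe each for EDN1, AGTR1, ADRB1 and CNN1 and 2 probes for MYLK. They are 6 of 15008 probes and 5 of the 1022 genes that could be named on this sheep array, and all 6 probes were among the 10261 tested. Each sample was RNA of the left ventricular free wall of a single fetus, collected at 139 to 144 days of gestation from singleton pregnancies, soon after labour had begun. The control group was 5 fetuses of ewes infused with vehicle, and the cortisol group was 5 fetuses of ewes infused with cortisol (Solu-Cortef) at 1 mg/kg/day from about day 115. Both groups therefore share late gestation and the onset of labour, and the hormone was given to the ewe and not to the fetus. There were 7 ewes in each group, and the sex of the fetuses is not used here.

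Endothelin-1, encoded by EDN1, is a peptide released mainly by endothelial cells that constricts vessels through the receptors EDNRA and EDNRB on smooth muscle and other cells. Angiotensin II acts on the type 1 receptor AGTR1 to constrict vessels, and the beta-1 adrenergic receptor ADRB1 carries the effect of noradrenaline and adrenaline on the rate and force of the heart. These receptors converge on calcium and kinases in the responding cell. In smooth muscle, calcium with calmodulin switches on myosin light chain kinase, the product of MYLK, which starts contraction, while calponin 1, the product of CNN1, binds actin and is used as a marker of differentiated smooth muscle.

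The array reads each gene through a fixed 60-base probe, so the probe sequence shows which stretch of the transcript each value stands for. The sequences are printed 5′ to 3′ as the array files give them. The whole probe is given for ADRB1 and MYLK, and the last 30 bases for EDN1, AGTR1 and CNN1. The capitals in CNN1 mark AATAAA, the letters of the common polyadenylation signal.
EDN1: aattgaaaacactcgaaggacaaacactcg
AGTR1: tcagatctaagaagtatatatattttgtgg
ADRB1: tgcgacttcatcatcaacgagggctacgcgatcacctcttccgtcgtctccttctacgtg
CNN1: agcacAATAAAtggctgtaaaatcaaaaaa
MYLK probe 1: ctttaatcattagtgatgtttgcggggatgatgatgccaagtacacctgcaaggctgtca
MYLK probe 2: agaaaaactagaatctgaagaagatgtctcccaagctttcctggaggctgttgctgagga

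The files place the start of these probes at base 1080 of the transcript for EDN1, 2053 for AGTR1, 378 for ADRB1 and 1424 for CNN1. MYLK probe 1 starts at base 1162 and MYLK probe 2 at base 914, 248 bases apart, so they read separate stretches of one transcript and are not replicates of each other. In CNN1 the hexamer AATAAA begins at base 36 of the probe, close to a run of A at its end. The same letters are in 5.63% of all probes on the printed strand and in 9.14% on either strand. No member probe shared a run of more than 16 bases with another probe of the array. Genome coordinates are not given, since no genome was used here.

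A level below is the log2 of the background-subtracted signal of a probe minus the 75th percentile of its array, so 0 means a signal equal to that percentile and each step of 1 is a doubling. Levels are compared between arrays for the same probe and not between probes. All 6 member probes were well above background on 10 of 10 arrays and no spot was saturated. ADRB1 and EDN1 lay nearest to background, with processed signals of 29.3 to 57.1 and 36.1 to 91.8 scanner units over a local background of 24.0 to 32.5 units. CNN1 had signals from 913 to 9466 units. The 75th percentile ran from 177 to 286 units over the arrays, and 63.5% to 73.2% of spots were well above background. One array, cortisol replicate 4, had an area of lost signal that held 1288 spots, and no member probe lay in it. The median coefficient of variation of spike-in probes was 24.5% on that array and 2.64% to 4.99% on the others. Its 75th percentile, 177, was the lowest and was taken over the lost spots too. The levels of all its probes, members included, may therefore be set too high. The arrays came from 2 slides: slide 1 held replicates 1 to 3 of each group and slide 2 replicates 4 and 5. Of 13 names listed as heart muscle markers 3 were matched, MYH7, TPM1 and CRYAB, and skeletal muscle expresses these too, so they do not tell the 2 tissues apart. They were well above background on every array, while the skeletal muscle genes MYH1, MYH2 and MYF5 were on none. Of the other skeletal muscle names, the troponin gene TNNC2 and the muscle phosphorylase gene PYGM were well above background on 10 arrays and the myogenic factor MYOD1 on 6. The descriptions of 9 samples name a skeletal muscle, whereas their titles and tissue fields name the left ventricle, which was followed here.

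No probe on the array passed the test between cortisol and control, and the 6 member probes were no exception. The share called by limma with Benjamini-Hochberg adjustment at 0.05 was 0% of the 10261 probes tested, with a smallest adjusted p of 0.990. Before adjustment 333 probes, 3.25% of those tested, had a limma p under 0.05, and 1.6% were on the higher side. Higher with cortisol were 164 of those 333 probes, but 202 of 331 with median scaling, 781 of 852 after normexp background correction and 186 of 265 in the authors' deposited table. The normexp setting also added an offset of 50 units to every signal, which weighs most on dim probes. Among the members 1 probe of 6 was there, EDN1, on the higher side. All 6 member probes had a higher mean with cortisol, beside 48.8% of all probes. The median difference over all probes was -0.0044 on the log2 scale. The 2 groups overlapped at each of the 6 member probes, and at all but 0.838% of the probes tested. In these tissue samples more cells of a type and more RNA per cell cannot be told apart. Nothing beyond the labels says how the fetuses relate to one another, so the p-values measure the spread between these samples.

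EDN1, the ligand, had levels of -2.68, -2.76, -2.19, -1.74 and -2.73 in control fetuses 1 to 5. In cortisol fetuses 1 to 5 the EDN1 level was -2.28, -1.81, -2.24, -1.17 and -1.39. Control 1, 2 and 5 were the lowest of the 10, cortisol 4 and 5 were the highest, and control 4 and control 3 lay among the cortisol fetuses, so the groups overlapped. Controls had a mean EDN1 level of -2.42 ± 0.44 (SD, n = 5), and cortisol fetuses one of -1.78 ± 0.50 (SD, n = 5). The difference was 0.64 on the log2 scale, with a standard error of 0.27 and a 95% interval of 0.05 to 1.24, or 1.56-fold. All 5 cortisol fetuses were above the control mean and 2 were above every control. The limma p was 0.037 before adjustment and 0.990 after it over all probes, so the difference did not pass the test. The EDN1 difference was 0.43 on slide 1 and 0.96 on slide 2. It was 0.49 without cortisol replicate 4, whose levels may be set too high. After normexp background correction with its offset of 50 units, the EDN1 difference was 0.41, more than 1.5 times smaller. An added constant shrinks log2 differences most at dim probes such as this one, and its share in the change was not tested.

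AGTR1, the receptor through which angiotensin II constricts vessels, had no common direction. Its levels in controls 1 to 5 were -0.33, -0.23, -0.39, 0.47 and 0.71. With cortisol they were 0.23, 0.40, 0.12, -0.68 and 0.86. The 3 controls of slide 1 were low and the 2 of slide 2 were high, whereas cortisol 4 was the lowest and cortisol 5 the highest of all 10 fetuses. Controls had a mean AGTR1 level of 0.04 ± 0.51 (SD, n = 5), and cortisol fetuses one of 0.19 ± 0.56 (SD, n = 5), a difference of 0.14 with a standard error of 0.30 (limma adjusted p = 0.992). The 95% interval ran from -0.53 to 0.82 and so holds both falls and rises. Within slide 1 the AGTR1 difference was 0.57, and within slide 2 the difference was -0.50. The slide 2 effect minus the slide 1 effect was -1.07 with a standard error of 0.52, and limma gave an unadjusted p of 0.071 and an adjusted p of 0.888 for it. Leaving out cortisol replicate 5 turned the AGTR1 difference to -0.02, and leaving out cortisol replicate 4 gave the highest value of that kind, 0.36.

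ADRB1, the main beta receptor of heart muscle, varied least between fetuses of the 5 genes. Its levels in controls 1 to 5 were -2.57, -2.32, -2.91, -2.45 and -2.30, and those in cortisol fetuses 1 to 5 were -2.71, -2.66, -2.50, -2.28 and -2.35. The 10 values spanned 1.54-fold and the groups lay over one another, with control 3 lowest and cortisol 4 highest. Controls had a mean ADRB1 level of -2.51 ± 0.25 (SD, n = 5), and cortisol fetuses one of -2.50 ± 0.19 (SD, n = 5). The difference was 0.01 with a standard error of 0.14 and a 95% interval of -0.30 to 0.33 (limma adjusted p = 0.999), and it had no stable sign, being -0.02 on slide 1 and 0.06 on slide 2, and it was 0.14 after normexp correction. Leaving out 1 array at a time moved it between -0.09, without control replicate 3, and 0.06. Differences of either sign within the 95% interval remain compatible with these arrays, and the interval is not a limit of detection.

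CNN1, the smooth muscle calponin, had the widest range of the 5 genes. Its levels in controls 1 to 5 were 2.97, 2.36, 1.92, 2.83 and 2.62. With cortisol the CNN1 levels were 5.60, 2.34, 2.94, 3.52 and 3.37. One fetus, cortisol 1, stood 2.07 log2 steps above the next highest array, cortisol 4 and 5 were above every control, and cortisol 2 and 3 lay within the control range. From the lowest to the highest fetus CNN1 differed 12.8-fold. Controls had a mean CNN1 level of 2.54 ± 0.42 (SD, n = 5), and cortisol fetuses one of 3.55 ± 1.23 (SD, n = 5), and 3.34% of all probes tested had a larger SD in the cortisol group. The difference was 1.01 with a standard error of 0.51 and a 95% interval of -0.11 to 2.14, or 2.02-fold, and limma gave a p of 0.074 before adjustment and 0.990 after it. Without cortisol replicate 1 the CNN1 difference was 0.50, and it was 1.21 on slide 1 and 0.72 on slide 2.

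MYLK, the gene of the kinase that starts smooth muscle contraction, gave nearly the same order of fetuses through both of its probes. Whether the transcripts read by these probes all encode the kinase was not tested. At probe 1 the levels were 1.98, 2.07, 2.46, 2.52 and 2.14 in controls 1 to 5 and 2.59, 1.98, 2.71, 2.73 and 2.76 in cortisol fetuses 1 to 5. At probe 2 they were 0.61, 0.41, 0.97, 1.08 and 0.55 in controls and 1.00, 0.41, 1.11, 1.58 and 1.19 with cortisol. Cortisol 2 was as low as the lowest controls at both probes, and the other 4 cortisol fetuses were above every control at probe 1. Over the 10 arrays the 2 probes had a Pearson r of 0.93 (permutation p = 0.00020) and a Spearman rho of 0.92 (permutation p = 0.00052).

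Controls had a mean MYLK level of 2.23 ± 0.24 (SD, n = 5) at probe 1, and cortisol fetuses one of 2.55 ± 0.33 (SD, n = 5). The difference was 0.32 with a standard error of 0.18 and a 95% interval of -0.07 to 0.71, or 1.25-fold (limma p of 0.096 before and 0.990 after adjustment). At MYLK probe 2 the difference was 0.34 with a standard error of 0.21 and a 95% interval of -0.13 to 0.81 (limma p of 0.141 before and 0.990 after adjustment). Both probes were higher on both slides, by 0.26 and 0.18 on slide 1 and by 0.41 and 0.57 on slide 2, for probe 1 and probe 2. Neither difference passed the test.

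**Figure D1:**
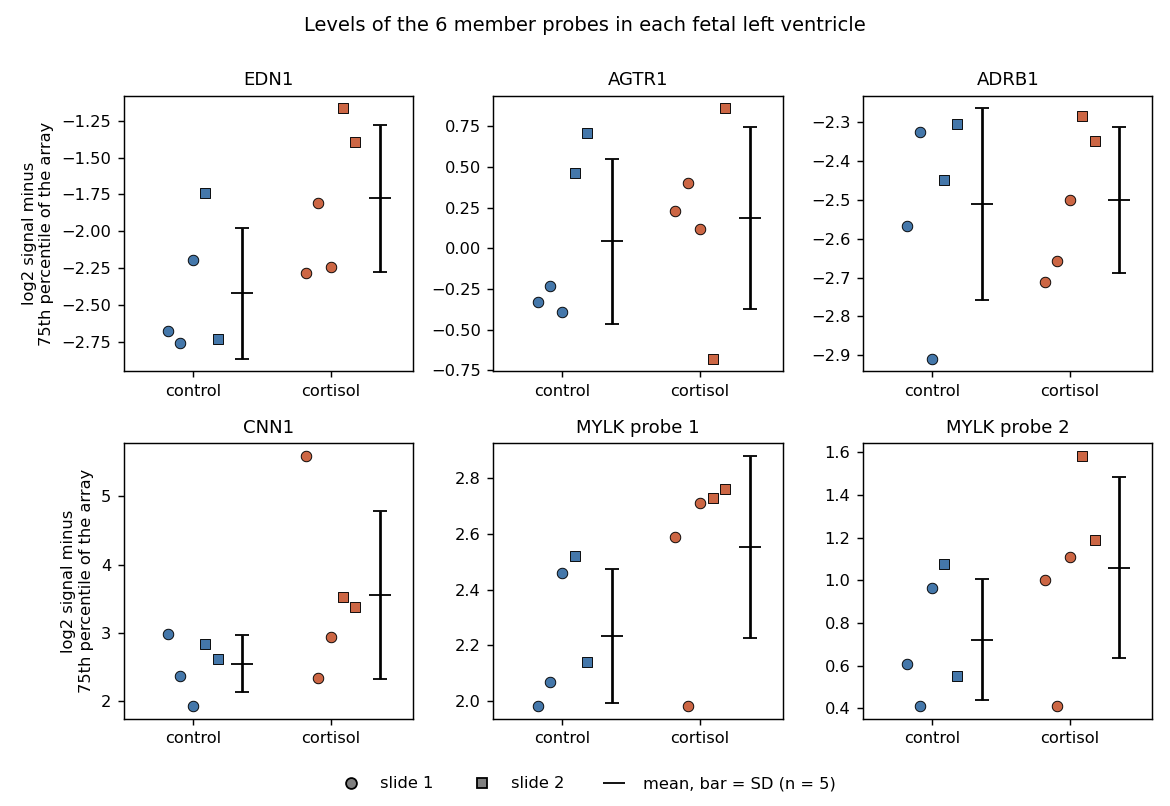
Each panel plots the level of 1 member probe (log2 signal minus the 75th percentile of the array) in 5 control and 5 cortisol fetuses, with circles for slide 1, squares for slide 2 and the mean ± SD beside each group. The groups overlap in every panel, and 1 cortisol fetus stands alone at the top of the CNN1 panel at 5.60.

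The members differed from one another in how far fetuses of a group spread. The SD pooled over the groups was 0.92 for CNN1, 0.54 for AGTR1, 0.47 for EDN1 and 0.22 for ADRB1, beside a median of 0.27 over all probes tested. For MYLK it was 0.29 at probe 1 and 0.36 at probe 2. The CNN1 spread was larger than that of 96.0% of tested probes, and the ADRB1 spread was larger than that of 35.8%. The plot of differences shows what this does to the intervals: that of CNN1 is the widest and that of ADRB1 the narrowest.

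**Figure D2:**
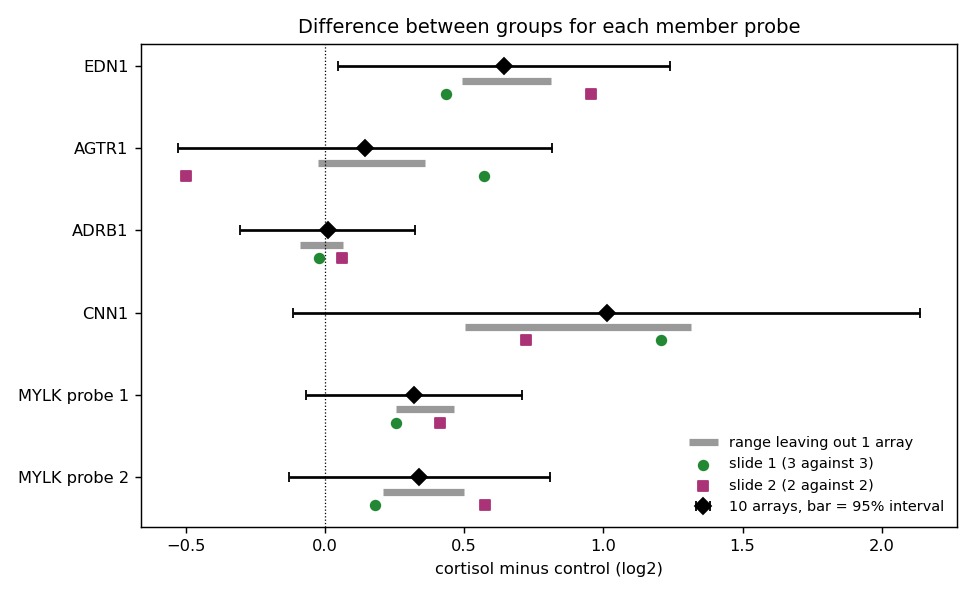
Diamonds give the cortisol minus control difference (log2) of each member probe over 10 arrays with its 95% interval, grey bars the range when 1 array at a time is left out, green circles the difference on slide 1 and purple squares that on slide 2. The intervals of 5 of the 6 probes include 0, the EDN1 interval starts at 0.05, and the AGTR1 slide values lie on opposite sides of 0.

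Whether the vasoactive genes went with the smooth muscle genes from fetus to fetus was asked with 6 pairs, among the 10 pairs that 5 genes make, with probe 1 standing for MYLK. None of the 10 pairs passed after Benjamini-Hochberg adjustment over them. EDN1 with MYLK had the highest correlation, with a Pearson r of 0.64 over 10 fetuses (permutation p = 0.052, adjusted 0.522) and a Spearman rho of 0.58 (permutation p = 0.088, adjusted 0.438). It was 0.47 after each group was centred on its mean and 0.20 among the 6 fetuses of slide 1. The 4 fetuses of slide 2 are too few for a value of their own. Without the 2 fetuses farthest from the EDN1 median, cortisol 4 and 5, both of which were high in EDN1, r was 0.37, so the relation rests in part on those samples. Without cortisol 4 alone, whose levels may be set too high, r was 0.56. At MYLK probe 2, r with EDN1 was 0.74 (permutation p = 0.016) and rho 0.75 (permutation p = 0.017), neither adjusted.

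The other pairs of a vasoactive gene with a smooth muscle gene had Pearson r between -0.01, for ADRB1 with CNN1, and 0.16, for EDN1 with CNN1. Their Spearman rho ran from 0.02 to 0.28. The permutation p-values of r ran from 0.687 to 0.970 and those of rho from 0.428 to 0.973, and all r had an adjusted p of 0.970. Cortisol 1, far above all others in CNN1, had EDN1 and ADRB1 levels in the lower part of the range. Without it r of ADRB1 with CNN1 was 0.67, and without control 3 instead that r was -0.42, the 2 ends of the range leaving out 1 array. CNN1 with MYLK had a Pearson r of 0.44 (permutation p = 0.195, adjusted 0.970) and a rho of 0.64 (permutation p = 0.054, adjusted 0.438), and without the 2 fetuses farthest from the CNN1 median r was 0.78. Among the vasoactive genes themselves, EDN1 with ADRB1 had an r of 0.15 (permutation p = 0.670) and a rho of 0.08 (permutation p = 0.840). For that pair, the 2 dimmest members, r was 0.77 after normexp correction with its offset of 50 units and -0.57 within slide 1.

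**Figure D3:**
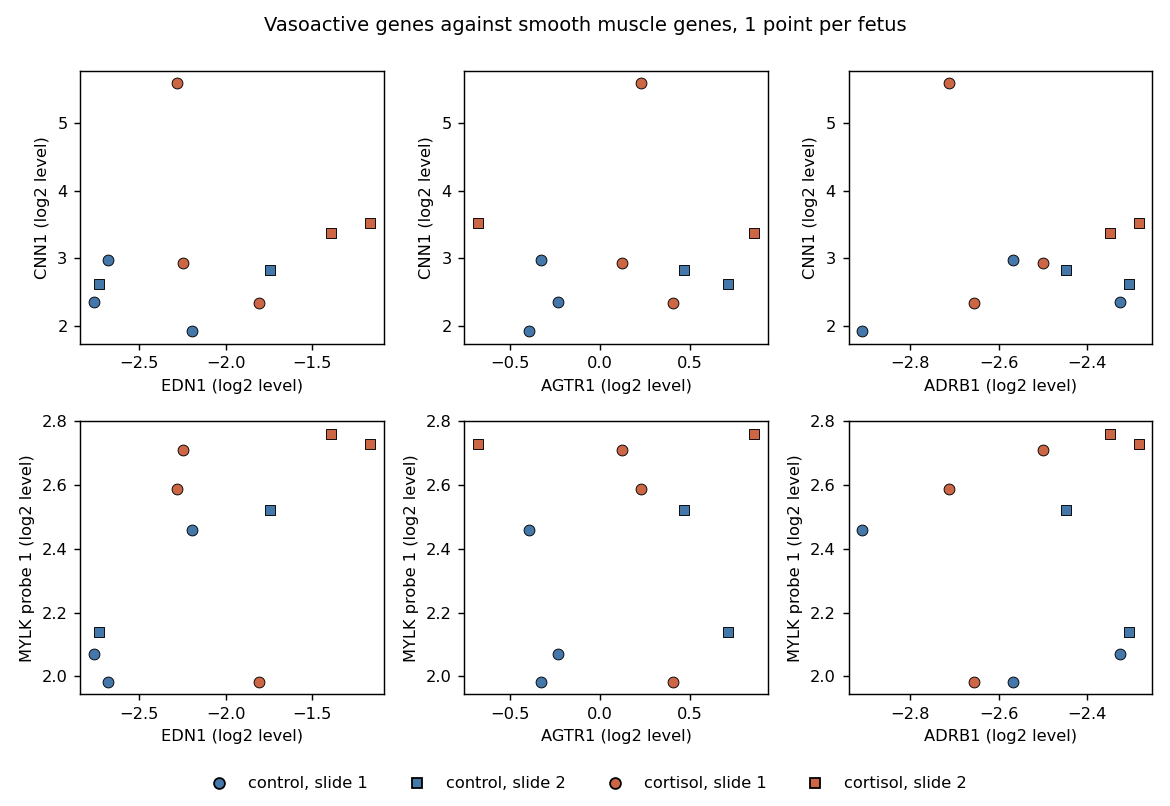
Each point is 1 fetus: the level of EDN1, AGTR1 or ADRB1 (x axes, log2) against CNN1 in the upper row and MYLK probe 1 in the lower row (y axes, log2), with colour for the group and shape for the slide. The highest r of the 6 pairs is that of EDN1 with MYLK (0.64), and in the CNN1 row 1 fetus at 5.60 lies away from the other 9.

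Of the endothelin genes measured, EDN1, EDNRA and EDNRB had a higher mean with cortisol at every probe, ECE1 had probes of either sign, and none passed the test. Of 9 endothelin names 4 were matched to a probe, and 0 of 4 passed the test. With the probe of highest mean over all arrays standing for a gene, 4 of 4 were higher, ECE1 through a probe that was the brighter in the cortisol group but not in controls, and the median difference was 0.22, beside -0.0044 over all probes. EDN1 and EDNRB, 2 of the 4, had an unadjusted limma p under 0.05, beside 3.25% of all probes tested. A higher mean with cortisol was found at 48.8% of all probes tested. Under the other settings 3 or 4 of the 4 were higher.

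The type A receptor EDNRA, which mediates constriction in smooth muscle, was higher by 0.13 with a standard error of 0.12 at its brighter probe and by 0.28 with a standard error of 0.19 at its dimmer one. At the brighter probe the EDNRA levels were 0.81, 0.74, 1.03, 0.85 and 0.92 in controls 1 to 5 and 0.82, 0.80, 0.98, 1.26 and 1.15 with cortisol. Cortisol 4 and 5, the highest fetuses for EDN1, were also the highest for EDNRA, but all levels of cortisol 4 may be set too high. The type B receptor EDNRB, found on endothelium and smooth muscle, was higher by 0.30 with a standard error of 0.13 at its brighter probe (limma p of 0.045 before and 0.990 after adjustment). There the EDNRB levels were -1.78, -1.88, -1.74, -1.58 and -1.39 in controls and -1.25, -1.56, -1.29, -1.61 and -1.15 with cortisol, and 3 cortisol fetuses were above every control. At its dimmer probe EDNRB was higher by 0.60 with a standard error of 0.26 (limma p of 0.045 before and 0.990 after adjustment). The converting enzyme ECE1, which cuts the endothelin precursor, gave 0.13 at one probe and -0.14 at the other.

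The receptors EDNRA, EDNRB and AGTR2 were also set against EDN1, CNN1, MYLK or AGTR1, in 9 pairs chosen after the levels had been seen. EDNRA with MYLK had a Pearson r of 0.72 (permutation p = 0.018, adjusted over the 9 pairs 0.096) and a rho of 0.81 (permutation p = 0.0076, adjusted 0.068). That r was 0.65 with groups centred, 0.68 within slide 1 and 0.56 without the 2 fetuses farthest from the EDNRA median. EDN1 with EDNRA had an r of 0.71 (permutation p = 0.021, adjusted 0.096) and a rho of 0.65 (permutation p = 0.047, adjusted 0.212), but 0.13 without the 2 fetuses farthest in EDN1, so that relation rests on those samples. EDNRB had an r of 0.55 with CNN1 (permutation p = 0.080, adjusted 0.179) and 0.59 with MYLK (permutation p = 0.077, adjusted 0.179). The rho values of EDNRB were 0.44 with CNN1 (permutation p = 0.205) and 0.56 with MYLK (permutation p = 0.096). None of the 9 passed after adjustment. The other 5 had r between -0.38 and 0.32 (permutation p from 0.299 to 0.891) and rho between -0.10 and 0.32 (permutation p from 0.369 to 1).

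In the angiotensin system 2 genes were tested, AGTR1 and AGTR2, and 0 of the 2 passed. The type 2 receptor AGTR2, abundant in fetal tissues, is known to oppose several actions of AGTR1. It was lower with cortisol by 0.47 with a standard error of 0.37 at its brighter probe, where its levels were -3.71, -2.35, -3.76, -3.07 and -2.65 in controls and -4.38, -4.25, -3.09, -2.84 and -3.31 with cortisol. At the dimmer AGTR2 probe the difference was -1.17 with a standard error of 0.47 (limma p of 0.033 before and 0.990 after adjustment), over 4 controls and 5 cortisol fetuses. That dimmer probe was well above background on all 5 control arrays but only 2 of 5 cortisol arrays. One control spot was left out because of its scanner marks. The converting enzyme ACE was well above background on 0 arrays at any of its 4 probes, so it was not tested.

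Of 26 adrenergic names 4 were matched and 2 tested, ADRB1 and the protein kinase A subunit PRKACA, which acts downstream of beta receptors. PRKACA differed by -0.04 with a standard error of 0.12. The beta-3 receptor ADRB3 was well above background on 0 arrays, and the noradrenaline transporter SLC6A2 on 2. None of 15 cardiac calcium handling names was matched.

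In the nitric oxide and cGMP list, whose products relax smooth muscle, 6 of 18 names were matched, 4 were tested, 2 were higher, 2 were lower and 0 passed, with a median of 0.10. The soluble guanylate cyclase subunit GUCY1B1, the receptor for nitric oxide, was higher by 0.47 and 0.45 at its 2 probes, with limma p of 0.060 and 0.052 and adjusted p of 0.990. At the first GUCY1B1 probe the levels were -2.35, -2.14, -1.98, -2.09 and -2.08 in controls and -2.30, -1.92, -1.82, -1.07 and -1.14 with cortisol. Cortisol 4 and 5 were again the highest, with the same limit on cortisol 4, whose levels may all be set too high. The cGMP kinase PRKG1 was higher by 0.35 with a standard error of 0.29, and endothelial nitric oxide synthase NOS3 differed by -0.15 with a standard error of 0.21.

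Of 37 other vasoactive names 10 were matched and 4 tested, with 3 higher, 0 past the threshold and a median of 0.25. The substance P precursor TAC1 had the widest spread among them, from -5.01 in control 5 to 0.00 in cortisol 5 at the probe standing for it. Its difference there was 1.33 with a standard error of 0.68 (limma p of 0.076 before and 0.990 after adjustment). That probe was the brighter of 2 in the cortisol group but not in controls. At the other TAC1 probe, with at least 1 spot in the area of lost signal, the difference was 1.07 with a standard error of 0.63 (limma p of 0.118 before and 0.990 after adjustment). Neuropeptide Y, NPY, a co-transmitter of sympathetic nerves, was higher by 0.41 with a standard error of 0.33. The vasodilator peptide gene CALCA differed by 0.09 with a standard error of 0.22. Of 19 prostanoid names 7 were matched and 3 tested, and their median was -0.01: cyclooxygenase PTGS1 differed by -0.17, the receptor PTGER3 by -0.01 and the synthase PTGDS by -0.0017, with standard errors of 0.20, 0.14 and 0.25. On cortisol replicate 4 the PTGS1 probe read -1.64, in the area of lost signal, whereas the other cortisol arrays read -0.98 to -0.47.

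The contractile list matched 3 of 20 names, CNN1, MYLK and the myosin light chain MYL6. Of these 3 of 3 were higher, beside 48.8% of all probes, and 0 were past the threshold, with a median of 0.32. MYL6, which is expressed widely and not in smooth muscle alone, differed by 0.12 with a standard error of 0.15. Of 34 names of contraction signalling 5 were matched and tested, 3 were higher and 2 lower, 0 passed and the median was 0.07. The calmodulin gene CALM2, one of the 2 lower, read 1.07 on cortisol replicate 4, in the area of lost signal. On the other cortisol arrays CALM2 read 2.12 to 2.60. Without cortisol replicate 4, 4 of the 5 were higher. The targeting subunit of myosin phosphatase, PPP1R12A, which with its catalytic partner undoes the work of MYLK, was higher by 0.20 with a standard error of 0.10 at one probe (limma p of 0.077 before and 0.990 after adjustment). At the other PPP1R12A probe the difference was -0.56 with a standard error of 0.68. On cortisol replicate 4 that other probe read -2.78, in the area of lost signal, whereas the other 4 cortisol arrays read 0.97 to 1.20. RHOA, which inhibits the phosphatase through its kinase, differed by 0.13 with a standard error of 0.13. RGS2, a brake on receptor signalling, had probes of either sign: -0.17 with a standard error of 0.29 at the brighter and 0.11 with a standard error of 0.34 at the dimmer.

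**Figure D4:**
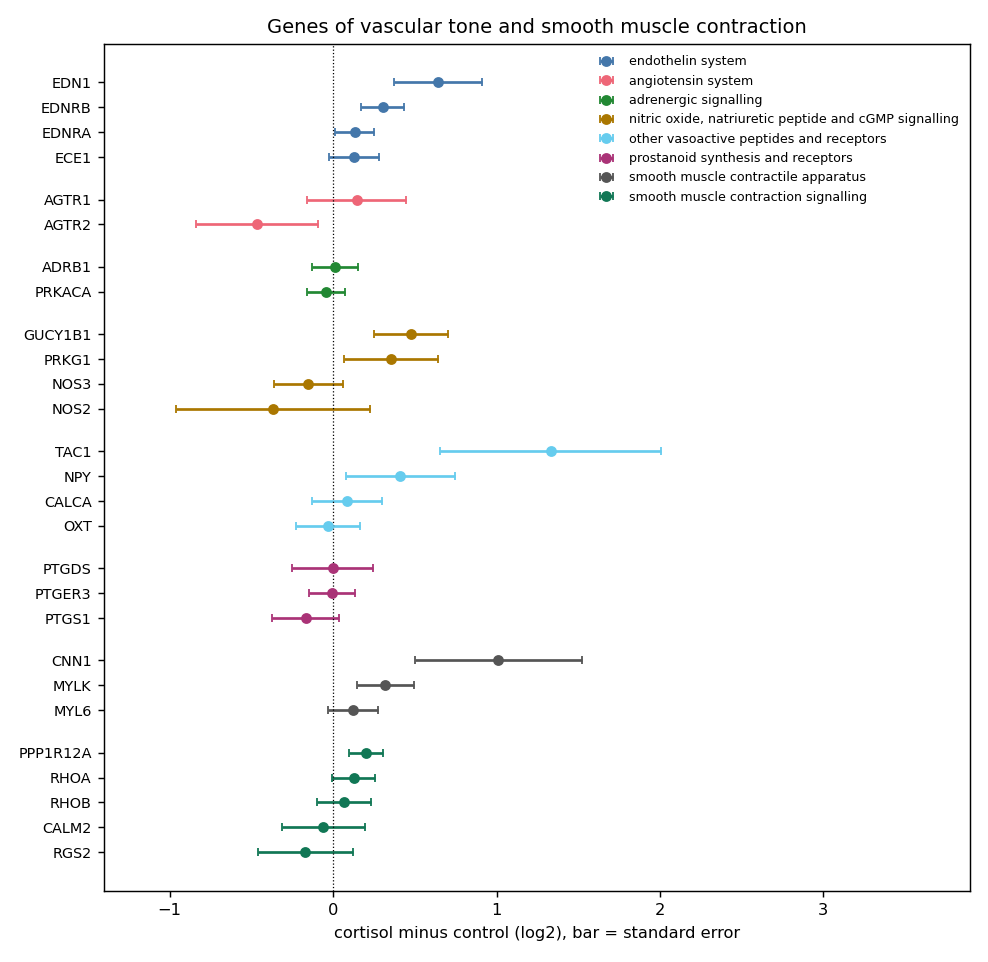
Points give the cortisol minus control difference (log2) of the brightest tested probe of each gene, bars its standard error and colours the list. No gene passed the test, and TAC1 at 1.33 and CNN1 at 1.01 lie farthest to the right with the longest bars on that side.

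Markers of other cells in the ventricle were read beside these values. Of 10 smooth muscle and pericyte names the 2 matched were CNN1 and MYLK themselves, so no marker apart from the members measured the smooth muscle content. Of 15 endothelial names 8 were tested, 6 of the 8 were higher with cortisol, beside 48.8% of all probes, and the median was 0.20. Their mean level, over the genes with a value on an array, ran from -2.05 to -1.51 in controls and from -1.86 to -1.34 with cortisol. TEK had a value on 4 of 5 control arrays and TIE1 on 3 of 5 cortisol arrays, so these means are not all of the same genes. The differences were 0.58 for TEK, 0.41 for ANGPT2, 0.26 for ICAM1, 0.22 for KDR, 0.18 for FLT1, 0.05 for PECAM1, -0.15 for NOS3 and -0.53 for TIE1. TIE1, TEK and ANGPT2 had an unadjusted limma p under 0.05, beside 3.25% of all probes tested, and TIE1 had a value on 3 of 5 cortisol arrays. The endothelial genes SELP and SELE were too dim to be tested. Among 4 fibroblast genes 2 were higher (median -0.02, mean level 1.61 to 2.39 in controls and 1.73 to 2.29 with cortisol), among 3 blood genes 1 (median -0.0042, -0.65 to 0.71 and -1.50 to 0.48), and among 6 fat cell genes 5 (median 0.24, -1.84 to 0.43 and -1.46 to 0.06). The blood gene CD14 had a value on 4 of 5 control arrays, so the control means of the blood genes are not all of the same genes. Over the 10 arrays the 3 genes listed as heart muscle markers were all lower, with a median of -0.10. Their mean level ran from 7.39 to 7.66 in controls and from 7.27 to 7.68 with cortisol. The TPM1 spot of cortisol replicate 4 was among the lost spots and read 8.07, whereas the other cortisol arrays read 8.68 to 9.19. Without cortisol replicate 4, 1 of the 3 heart muscle genes was higher, and under other settings up to 2 were. Of 3 skeletal muscle genes tested 1 was higher, with a median of -0.27 and a mean level of -0.87 to -0.36 in controls and -1.32 to -0.86 with cortisol. MYOD1, well above background on 6 arrays, differed by -0.59 with a standard error of 0.17 (limma p of 0.0053 before and 0.990 after adjustment). PYGM differed by -0.27 and TNNC2 by 0.05. No marker passed the test, and the part of these cell types in the values of the members was not tested.

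The genes whose pattern over the 10 arrays was most like each member were taken from 628 named genes, as the 3 with the highest Pearson r. For EDN1 they were GGTA1, a sugar transferase (r = 0.90), the growth factor BMP6 (r = 0.84) and GUCY1B1 (r = 0.82). For AGTR1 they were a gene listed as SST1 (r = 0.82), the protease CAPN2 (r = 0.78) and PCK1, an enzyme of glucose synthesis (r = 0.76). For ADRB1 they were AGTR2 (r = 0.80), the actin-severing protein CFL1 (r = 0.69) and hexokinase HK1 (r = 0.69). For MYLK they were the survival factor BCL2, the activin subunit INHBA and the integrin ITGB2, each at r = 0.80. For CNN1 they were the carnitine palmitoyltransferase CPT1B (r = 0.91), the receptor TGFBR2 (r = 0.85 over 8 arrays) and the carnitine carrier SLC25A20 (r = 0.82). The CNN1 values leaned on cortisol 1: without that fetus r was 0.76 for CPT1B, 0.64 for TGFBR2 and 0.28 for SLC25A20. Each of these r is the highest of many and is given as a description of these arrays, which share the 2 slides and the 2 groups.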

How the data were processed

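Total RNA of 10 ventricles was labelled with Cy3 and hybridised to a 1-colour Agilent sheep array. Intensity values are those deposited by the authors as scanner output of Agilent Feature Extraction 10.1.1.1, per the submitters' processing notes; per the file headers the processed signal was background-subtracted and detrended. The log2 values deposited by the authors as a table ranked each array's spots exactly as the median signal minus local background does and were centred to array medians of 5.82 to 5.83; no source used here gives their further steps, and they served as an alternative.

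From the intensities, log2 processed signal minus each array's 75th percentile over 15744 spots less 536 controls was computed. Non-uniform, outlier and unfound spots were left out, spots of a probe averaged, and probes tested where well above background on at least 5 of 10 arrays. The test was limma 3.58.1 in R 4.3.3 (lmFit, eBayes), two-sided, Benjamini-Hochberg over all probes, on 5 arrays against 5, which limits the precision. The fit was tested on simulated data first. Correlations used 100000 permutations over 10 arrays, or all permutations with fewer, two-sided. Probes were named from the files through RefSeq names: 726 by accession, 509 by symbol, 125 by gene identifier, 16 by synonym, 28 by hand, 254 as in the files, and 13350 stayed unnamed.

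Named genes are every member probe, up to 3 genes of smallest p per list, the endothelin and angiotensin genes with a probe, and the 3 genes most like each member; markers and genes named beyond these were chosen after their values were seen. The members and lists were chosen with earlier results of these data known. Alternatives covered background (normexp with an offset of 50 units), scaling, filters, slides, weights, variance and leaving out arrays. Receptor pairs were added after seeing the data. One gene of the angiotensin list is not reported here.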

Additional observations from a re-analysis of the deposited data

Results flagged for a closer look

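Among 48 groups of values (the member probes and the named genes of the lists, each in controls and in cortisol fetuses), 2 held 1 array whose gap to the nearest other was too large a part of the group's range by Dixon's criterion at 95%, and chance alone marks about 1 in 20 such groups. At MYLK probe 1, cortisol replicate 2 was at 1.98 while the other 4 cortisol fetuses lay between 2.59 and 2.76. At ECE1, control replicate 5 was at -3.01 while the other 4 controls lay between -3.38 and -3.29.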

How the results depend on the processing

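Under 25 alternatives limma called 0 probes past the threshold, and no difference of a member passed it. At an unadjusted p under 0.05 the count was 852 after normexp correction, of which 781 were higher with cortisol, and 238 to 469 when 1 array was left out. EDN1 (0.49 to 0.81 leaving out 1 array), CNN1 (0.50 to 1.32), MYLK probe 1 (0.26 to 0.46) and MYLK probe 2 (0.21 to 0.50) stayed higher with cortisol under every alternative run. AGTR1 turned to -0.50 on slide 2 and ran from -0.024 to 0.36 leaving out 1 array; ADRB1 turned to -0.023 on slide 1 and -0.048 with array weights and ran from -0.089 to 0.064. The cause was not tested. Correlations changed sign as follows. EDN1 with AGTR1 was -0.048 centred on groups and -0.19 with slide as a block (-0.23 to 0.55 leaving out 1 array). EDN1 with ADRB1 was -0.42 without the 2 farthest arrays, -0.57 on slide 1 and -0.31 with slide as a block (-0.089 to 0.34). EDN1 with CNN1 was -0.23 centred on groups, -0.0065 without the 2 farthest and -0.037 on slide 1. AGTR1 with ADRB1 was -0.083 with slide as a block (-0.069 to 0.52), AGTR1 with CNN1 ran from -0.042 to 0.23, and AGTR1 with MYLK was -0.037 centred on groups and -0.12 with slide as a block (-0.20 to 0.32). ADRB1 with CNN1 was 0.37 without the 2 farthest, 0.43 after normexp, 0.0076 after quantile normalization, 0.038 with median scaling, 0.010 with the percentile over bright probes and 0.23 in the authors' deposited table (-0.42 to 0.67). ADRB1 with MYLK was -0.30 on slide 1, -0.25 with slide as a block and -0.0078 after quantile normalization (-0.057 to 0.23). On slide 2 the list medians were -0.19 for nitric oxide and cGMP, 0.22 for prostanoids and 0.20 for contraction signalling. The samples were not treated as paired by replicate number, since not every same-numbered pair had deviations correlated above 0.1 (0.22, -0.01, 0.15, 0.19 and 0.02); 6 of 10 arrays correlated best with their own number, a hint from the data and not from the design. With the replicate number as a block 394 probes had an unadjusted p under 0.05, 0 passed, and the EDN1 difference stayed at 0.64 (adjusted p = 0.944).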

Other observations

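Cortisol replicate 1 was not the array with most probes standing alone. On it 4 probes, CNN1 among them, lay at least 2.07 log2 steps above all other arrays, against 12 on cortisol replicate 5, 2 on cortisol replicate 4, 1 on cortisol replicate 3, and 0 on cortisol replicate 2 and on each of the 5 controls. The other named genes at least 1 log2 step above all other arrays on cortisol replicate 1 were PSPH, an enzyme of serine synthesis, at 1.45, and the vascular adhesion molecule MADCAM1, at 1.30 and 1.24 at its 2 probes.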
